A study of Mus musculus with 4 samples.

Results

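Actin filaments, the receptors that tie them to neighbouring cells and to the matrix, and the matrix proteins outside the cell were looked up in a map of CHD4 binding in mouse cells labelled spermatogonial. Members were the intervals whose deposited gene name contains actin, myosin, laminin, collagen, integrin, cadherin, catenin, vinculin, filamin, fibronectin or tropomyosin, but not interacting. Intervals named for Tns3, Acta2 and Cdh5, 10 in all, were left out. This gave 60 intervals named for 50 genes, of 1849 intervals in the list. An interval is a stretch of DNA where CHD4 signal was called above IgG, and its summit is the highest point in it.

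CHD4 was mapped by CUT&Tag, in which antibody-tethered Tn5 transposase cuts the DNA next to the bound protein and adds sequencing adapters to it. The samples came from digested testes of wild-type C57BL/6 mice, with no treatment stated, and 2 were made with an antibody against CHD4 and 2 with a control antibody, which the labels give as an HRP-linked rabbit antibody against mouse IgG. Donor age and sex, and any step that enriched spermatogonia among the digested cells, are not stated there. The authors' file is 1 list over all samples with no value per sample, so no value below has a replicate check and no test between groups was possible. A binding map holds no expression values, so the cell label could not be checked against expression. Among marker genes, an interval was named for 0 of 11 of germ cells, 1 of 7 of Sertoli cells (Gata4), 1 of 6 of peritubular cells (Acta2), 0 of 6 of Leydig cells, 2 of 4 of endothelial cells (Cdh5 and Kdr) and 0 of 3 of macrophages, beside 6.07% of all protein-coding genes. These lists are too short to be read against that share.

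CHD4 is the motor subunit of NuRD, a complex which moves nucleosomes and removes acetyl groups from histones and is best known for restraining transcription, although it also sits at active genes. Actin filaments are nucleated, branched, capped and cross-linked by dedicated proteins, and myosin motors pull on them. Integrins link the filaments to laminins and collagens of the basement membrane, and cadherins link them through catenins to the next cell. In the seminiferous tubule spermatogonia rest on a laminin and type IV collagen basement membrane, and integrins containing the beta 1 chain take part in the homing of spermatogonial stem cells to it.

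A name search also finds genes of other function. Of the 60 intervals, 13, named for 12 genes, were classed as matches through a word with another meaning. These were the disintegrin of 6 metalloproteases, the dynactin of Dctn6, the contactin of Cntnap5b and the calpactin of S100a10. The others were the trans-acting of Sp1 and Sp3, and Cactin, whose own name contains actin. This class is open to question for calpactin. No interval was named for vinculin. All 60 intervals had 1 summit each, while 182 of the 1849 intervals in the list had more (9.84%, exact 95% interval 8.52 to 11.3). A count of 0 among 60 allows a share up to 5.96%.

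The promoter sequences below are shown because a CHD4 interval overlaps each of them, in whole or in part. RefSeq gives a promoter for 37 of the 50 genes, as 300 bases from 250 before to 50 after the start (build GRCm38.p6, with the coordinates of mm10), and 7 genes had an interval overlapping theirs. The 5 of highest fold are printed 5′ to 3′ as the 250 bases before the start. Capitals mark the motifs searched on both strands. The Brk1 window is chr6:113604522-113604771 on the plus strand, covered by the interval from base 44 to its last base. The Cd47 window is chr16:49855404-49855653, plus strand, covered from base 1 to base 115. The Adamts17 window is chr7:66839485-66839734, plus strand, covered from base 100 onward. The P4ha1 window is chr10:59323046-59323295, plus strand, covered from base 151 onward. The Myl12a window is chr17:71002534-71002783, minus strand, covered from base 204 onward.
Brk1: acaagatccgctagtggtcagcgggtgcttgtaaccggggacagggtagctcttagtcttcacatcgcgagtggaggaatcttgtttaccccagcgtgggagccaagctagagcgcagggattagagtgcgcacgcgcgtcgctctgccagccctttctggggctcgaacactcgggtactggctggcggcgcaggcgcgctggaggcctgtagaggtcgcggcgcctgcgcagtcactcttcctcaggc
Cd47: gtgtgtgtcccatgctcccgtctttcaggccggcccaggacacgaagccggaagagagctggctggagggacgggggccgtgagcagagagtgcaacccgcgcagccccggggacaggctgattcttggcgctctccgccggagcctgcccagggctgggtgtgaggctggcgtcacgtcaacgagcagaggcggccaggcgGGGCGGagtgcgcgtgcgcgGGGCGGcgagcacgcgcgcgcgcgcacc
Adamts17: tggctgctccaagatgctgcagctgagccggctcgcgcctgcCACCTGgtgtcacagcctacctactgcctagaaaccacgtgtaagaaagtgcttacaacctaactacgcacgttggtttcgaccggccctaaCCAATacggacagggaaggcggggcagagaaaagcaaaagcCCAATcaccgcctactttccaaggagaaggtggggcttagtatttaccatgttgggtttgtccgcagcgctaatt
P4ha1: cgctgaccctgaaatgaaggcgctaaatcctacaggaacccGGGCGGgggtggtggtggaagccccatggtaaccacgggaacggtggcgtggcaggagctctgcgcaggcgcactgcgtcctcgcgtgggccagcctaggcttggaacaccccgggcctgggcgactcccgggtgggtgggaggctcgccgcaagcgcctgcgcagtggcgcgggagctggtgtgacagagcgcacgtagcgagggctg
Myl12a: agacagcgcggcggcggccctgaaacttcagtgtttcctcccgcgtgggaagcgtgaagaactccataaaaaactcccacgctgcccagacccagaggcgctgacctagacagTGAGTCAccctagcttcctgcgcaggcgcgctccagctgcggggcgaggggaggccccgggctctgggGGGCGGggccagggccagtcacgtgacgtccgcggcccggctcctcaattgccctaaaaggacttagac

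The motifs were TGANTCA (the AP-1 motif), GGAATG (TEAD), CACCTG (an E-box read by Snail and Zeb factors), GGGCGG (the GC box), CCAAT, and the CArG box read by SRF. The GC box was present in 5 of the 7 promoters (Cactin, Cd47, Myl12a, P4ha1 and Sp1), against 35.9% of all 32544 RefSeq promoters of the same length. CCAAT was present in 2 (Adamts17 and Sp1) against 37.4%, and GGAATG in 2 (Cactin and Myl12a) against 14.6%. TGANTCA was found in Myl12a, where 7.79% of all promoters hold it, and CACCTG in Adamts17, where 20.3% do. The CArG box was in none, and 1.64% of all promoters hold it. These counts are over the whole promoters: of 21 matches in all, 10 lay under the interval itself. There the GC box was found in 3 promoters (Cactin, P4ha1 and Sp1), CCAAT in Adamts17 and Sp1, GGAATG in Cactin and Myl12a, and the other motifs in none. The GC boxes of Cd47 and Myl12a, the TGANTCA of Myl12a and the CACCTG of Adamts17 lay outside the covered bases. In Brk1 none of the motifs was found, and in Myl12a the GGAATG lies after the start, outside the printed bases. The 7 promoters had a median GC content of 64.0%, from 55.7 to 74.0, against 53.0% for all promoters. A match describes these letters only, and 7 promoters are too few for more than counts.

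Over the whole set the binding was of ordinary strength. The fold, which is the authors' own ratio of CHD4 to IgG signal at the summit, had a median of 4.95 over the 60 intervals (95% interval of the median from ranks, 4.56 to 5.43) and 4.76 over all 1849 (4.67 to 4.80). Member folds ranged from 1.82 to 12.2, and the lowest in the list was 1.75. Of the 184 intervals of highest fold, from 6.77 up, 7 were members, which is 11.7% of the 60 beside 9.95% of the list. The −log10 q, the authors' measure of how far a summit stands above IgG, had a median of 2.85 among members and 2.90 in the list.

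The fragments behind each summit were recovered from its deposited fold and −log10 p. Members had a median of 22.5 CHD4 fragments, from 12 to 155, where the list had 27, from 12 to 177. Fewer than 20 fragments lay under 24 of the 60 (40%, exact 95% interval 27.6 to 53.5) and under 474 of all intervals (25.6%, 23.7 to 27.7). The IgG expectation, the number of fragments expected at the summit at the depth of the control, had a median of 0.869 in members and 1.31 in the list. CHD4 fragments are printed unscaled throughout, and the fold takes them times 0.429. Fragments divided by the expectation therefore do not give the fold. Exact 95% Poisson intervals of the fragments cover counting error only, and the fold bounds given below carry them with the IgG expectation held fixed. With these bounds 6 of the 60 folds lay wholly above the median of the list (Actn4, Lamc1, Itgb5, Col17a1, Adam9 and Fank1), and 7 wholly below it. The other 47 could not be told apart from that median by counting error alone.

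**Figure D1:**
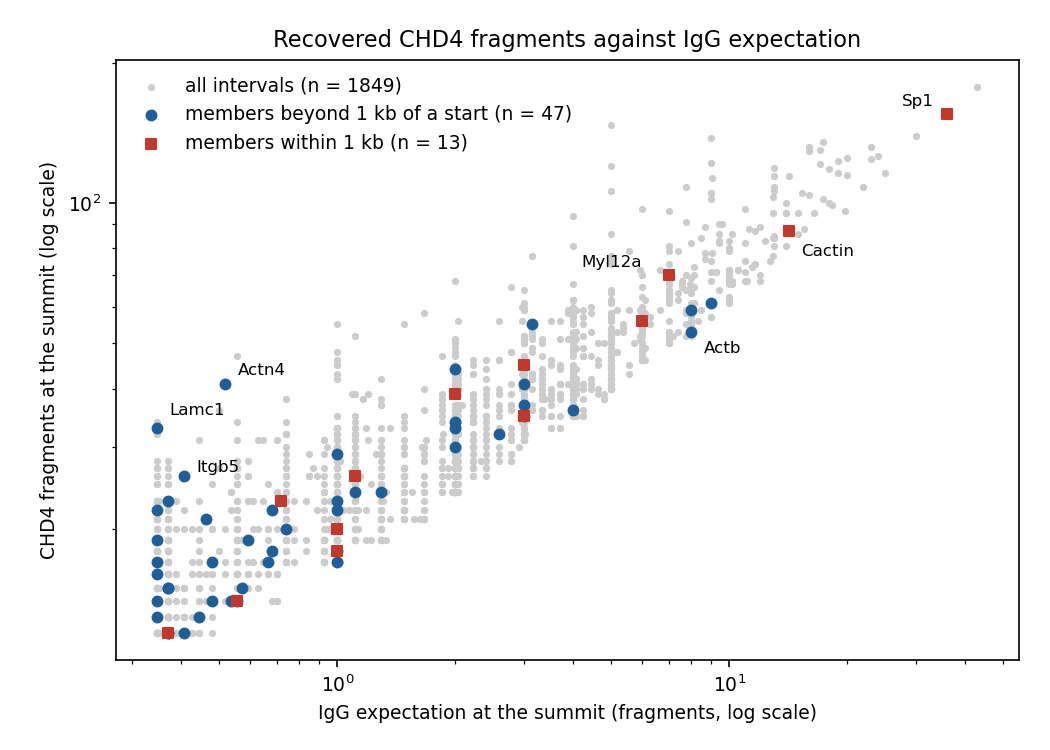
CHD4 fragments at the summit against the IgG expectation at the summit, both on log scales, for all 1849 intervals (grey) and the 60 members (blue circles beyond 1 kb of a transcript start, red squares within 1 kb). Actn4 and Lamc1 stand towards the left, with 41 and 33 fragments over expectations of 0.517 and 0.346, while Sp1 stands at the upper right with 155 over 36. CHD4 fragments are unscaled and the expectation is at the depth of the control, so their ratio is not the fold.

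Among the genes of actin filaments, Actn4, which cross-links filaments into bundles, carried the highest fold of the set. Its interval (chr7:28925356-28925896) had a fold of 12.2 (8.97 to 16.4) and a −log10 q of 15.3, from 41 CHD4 fragments (29.4 to 55.6) over an IgG expectation of 0.517. It was the interval of rank 3 in the list by fold. By the annotation it lay in an exon of a transcript that carries no gene number there, within the body of Actn4. It was 6.13 kb upstream of the nearest transcript start and 36.7 kb from the 5′ boundary of Actn4, so it did not sit at the main promoter. No other interval lay within 100 kb of it.

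Actn1, the other alpha-actinin outside striated muscle, had 2 intervals. The intergenic one (chr12:80291865-80292355), 31.5 kb upstream of the start, had a fold of 6.80 (4.39 to 10.2) and a −log10 q of 5.22 from 19 fragments over 0.346. The one in intron 1 (chr12:80220540-80220847) had a fold of 4 (2.86 to 5.47) and a −log10 q of 2.85 from 35 fragments over 3. The higher fold therefore belonged to the summit with fewer fragments, and the bounds of the folds overlapped.

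Of the 12 intervals in this group 4 lay within 1 kb of a start. Brk1, a subunit of the WAVE complex that turns on branched actin assembly, had an interval over its start (chr6:113604565-113605111) with a fold of 5.76 (3.93 to 8.22), a −log10 q of 4.19 and 26 fragments over 1.11. The intervals of Ablim1, Cttn and Macf1 lay at starts of shorter transcripts inside the gene, from 21.8 to 122 kb from its 5′ boundary. Ablim1, an actin-binding LIM protein (chr19:57198626-57198919), had a fold of 6.31 and a −log10 q of 3.93 from 23 fragments, 0.995 kb upstream of such a start. Cttn, cortactin, which stabilises branched filaments (chr7:144449698-144449900), had a fold of 4.51 and a −log10 q of 1.93 from 14 fragments, over the start. Macf1, which links filaments to microtubules (chr4:123565414-123565642), had a fold of 4.49 and a −log10 q of 1.83 from 12 fragments, 0.720 kb upstream. A count of 12 is the lowest in the list.

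Capzb, a subunit of the protein that caps filament ends, had a fold of 5.18 in intron 1, 3.41 kb upstream of the nearest start. The interval named for Xirp1, a muscle filament protein, had 5.05 at 10.6 kb, but lay outside Xirp1, in an intron of a Cx3cr1 transcript. Actb, beta-actin itself, had the lowest fold of the group (chr5:142920813-142921113): 2.64 (2.00 to 3.41), with a −log10 q of 1.33, from 53 fragments over 8, in intergenic DNA 14.1 kb upstream of the start. The bounds of Actb and Actn4 did not overlap, and Actb had the greater number of fragments.

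**Figure D2:**
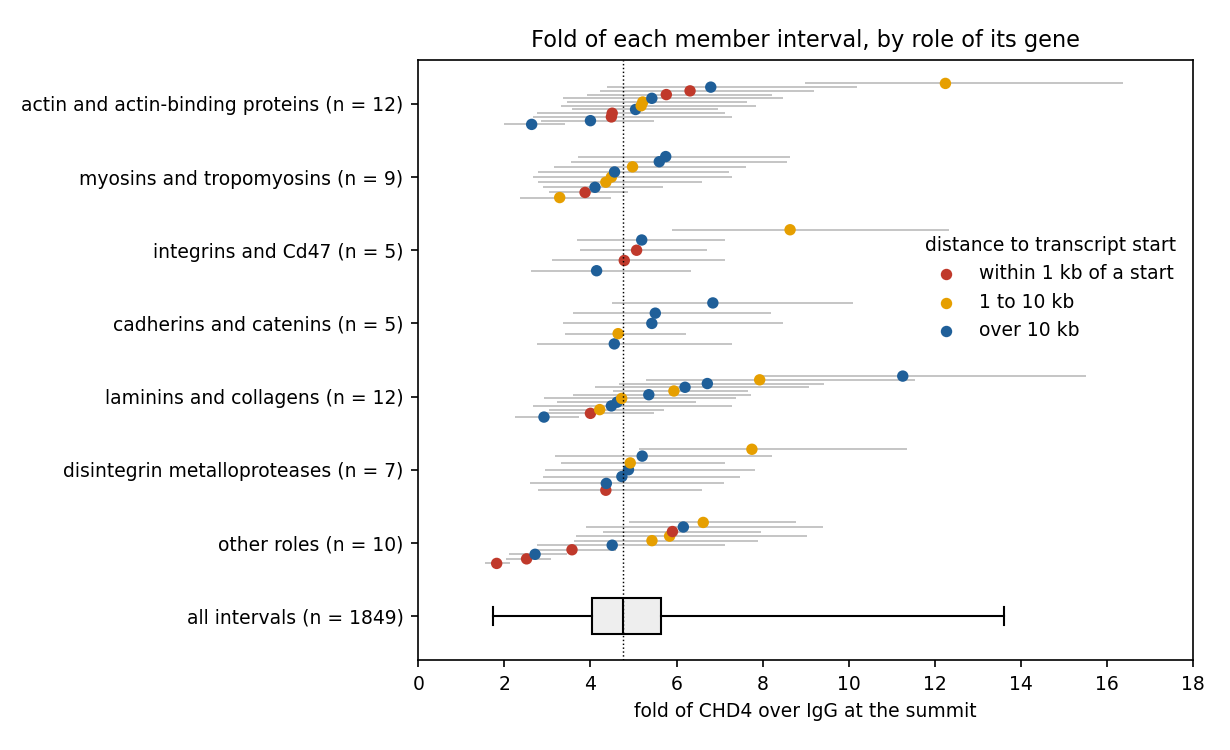
Fold of CHD4 over IgG at the summit for each of the 60 member intervals, grouped by the role of the named gene and coloured by distance to the transcript start. Grey lines are the fold bounds from the 95% Poisson interval of the CHD4 fragments, the box gives the quartiles and the whole range over all 1849 intervals, and the dotted line is their median of 4.76. Actn4 at 12.2 and Lamc1 at 11.3 lie apart from the rest of their groups.

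Motor and tropomyosin genes had the lowest median fold of any group named here, 4.49 over 9 intervals of 7 genes, against 4.76 in the list. Myo10, a motor that moves to the tips of filopodia, had 2 intervals in intron 1 that lay 2.94 kb apart (chr15:25642491-25642891 and chr15:25639300-25639547). Their folds were 5.75 (3.71 to 8.63) and 5.60 (3.54 to 8.56), with −log10 q of 3.60 and 3.17, from 19 and 17 fragments, at 19.9 and 16.8 kb from the start. These values could not be told apart.

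Myl12a, a regulatory light chain of non-muscle myosin, was the gene of this group with an interval within 1 kb of a start. That interval (chr17:71002267-71002580) contained the start and had a fold of 3.88 (3.05 to 4.86) and a −log10 q of 5.91 from 70 fragments (54.6 to 88.4) over 7. Its −log10 q was above the 5.46 of the Fat1 interval, whose fold was 6.84 from 21 fragments. Myh9, the heavy chain of non-muscle myosin IIA, had a fold of 4.11 in intron 3 at 14.2 kb from the start, from 32 fragments over 2.58. Myo18a had 4.36 in intron 2, and Mylk3, a myosin light chain kinase of the heart, had 4.49 at 1.42 kb.

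Tropomyosins lie along filaments and govern which myosins bind. Tpm1 had an interval downstream of the gene (chr9:67020002-67020276), with a fold of 4.56, a −log10 q of 1.99 and 14 fragments, which overlapped the long non-coding RNA gene Gm30639. Its other interval (chr9:67045175-67045376), 1.21 kb upstream of a start, had a fold of 3.29, a −log10 q of 1.62 and 36 fragments over 4. Tpm4 had 4.98 at 1.57 kb from its start.

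Of 26 integrin genes 3 were named for an interval (11.5%, exact 95% interval 2.45 to 30.2). The share of all protein-coding genes, 6.07%, lies inside that 95% interval. Itgad, which codes for an alpha chain, also held a CHD4 interval, but that one was named for another gene. The 3 named genes each code for a beta chain. Itgb5, a chain that pairs with alpha V to bind vitronectin, had the highest fold of them (chr16:33836512-33837062): 8.64 (5.89 to 12.3), with a −log10 q of 8.39, from 26 fragments (17 to 38.1) over 0.406, in intron 1 at 6.83 kb from the start. Itgb6, the chain of an integrin that activates TGF-beta, had 5.19 in intron 7 at 33.6 kb, from 34 fragments over 2.00. Itgb1, the partner of most alpha chains that bind laminin, collagen and fibronectin, had an interval at its promoter (chr8:128686125-128686392), 0.255 kb from the start, with a fold of 4.79 (3.12 to 7.12), a −log10 q of 2.07 and 20 fragments over 1.00. The bounds of Itgb5 and Itgb1 overlapped.

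Cd47, the integrin-associated protein that also gives phagocytes a signal to hold back, had 2 intervals. The one over an annotated transcript start (chr16:49855121-49855518) had a fold of 5.07 (3.77 to 6.70) and a −log10 q of 5.44 from 45 fragments over 3. It lay 3.99 kb from the 5′ boundary of the gene and ended before the RefSeq start of the promoter printed above. The other (chr16:50010593-50010887), in intergenic DNA 144 kb from the start, had 4.14 (2.62 to 6.33) and 1.35 from 17 fragments.

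None of the 5 intervals of cadherin and catenin genes lay within 1 kb of a start. Fat1, a giant atypical cadherin that guides actin at cell contacts, had the highest fold (chr8:44996605-44996805): 6.84 (4.50 to 10.1), with a −log10 q of 5.46, from 21 fragments over 0.461, in intron 3 at 46.4 kb. Ctnna3, an alpha-catenin, had 5.51 in intron 3 at 32.6 kb. Cdhr3, a cadherin of airway epithelium, had 5.43 at 16.8 kb, outside the gene, and Cdh23, a cadherin of inner-ear hair cell links, had 4.56 in intron 2 at 27.0 kb. Ctnnd1, p120 catenin, which holds cadherins at the cell surface, had 4.64 at 2.19 kb from a start, from 41 fragments. No interval was named for the classical cadherins of epithelium and nerve, Cdh1 and Cdh2, or for beta-catenin, Ctnnb1. Only 6.07% of all protein-coding genes were named for one, so these absences say little.

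Basement membrane chains made up most of the matrix intervals. Lamc1, the gamma chain of nearly all laminins, had 3 intervals, all in intron 1. The middle one (chr1:153292283-153292684) had a fold of 11.3 (7.98 to 15.5) and a −log10 q of 13.5 from 33 fragments (22.7 to 46.3) over 0.346, the lowest expectation in the list, and it ranked 5 by fold. The one nearer the 5′ end (chr1:153300486-153300760) had 5.36 (3.60 to 7.74) and a −log10 q of 3.34 from 24 fragments over 1.11. The farther one (chr1:153277988-153278248) had 4.49 (2.67 to 7.29) and 1.83 from 12 fragments over 0.369. The bounds of the middle interval lay above those of both others. They sat 40.1, 32.0 and 27.5 kb from the start the annotation gives each of them, the last being counted from another transcript.

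Col4a1 and Col4a2, the chains of the commonest type IV collagen, are read head to head from a shared promoter, and their boundaries overlap by 0.084 kb. No interval lay at that shared start. Col4a1 had an interval in intron 2 (chr8:11259829-11260175), with a fold of 4.62 (3.23 to 6.45), a −log10 q of 2.69 and 30 fragments over 2.00. Col4a2 had 2 in intron 4, 4.53 kb apart. The one at chr8:11387287-11387545 had 6.72 (4.66 to 9.43) and a −log10 q of 5.52 from 29 fragments over 1.00. Its neighbour at chr8:11382531-11382761 had 2.92 (2.25 to 3.74) and a −log10 q of 2.51 from 59 fragments over 8. The bounds did not overlap, and the neighbour with the lower fold had more fragments and an 8 times higher IgG expectation. The part of the IgG level in this difference was not tested. No further interval lay within 100 kb of the pair.

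**Figure D3:**
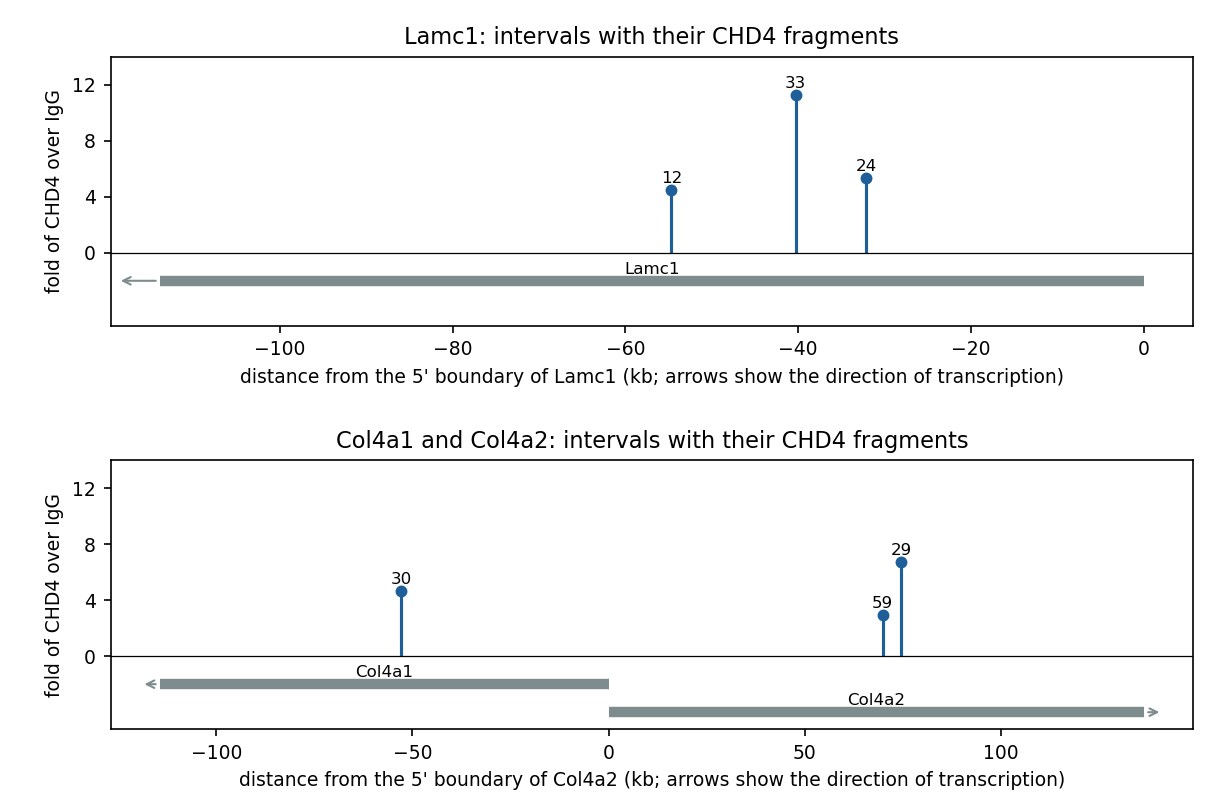
Fold of each interval along Lamc1 (upper panel, 3 intervals) and the Col4a1 and Col4a2 locus (lower panel, 3 intervals), by distance in kb from the 5′ boundary of Lamc1 or Col4a2, with the number of CHD4 fragments over each. Grey bars are the genes and arrows their direction, and no interval stands at the 5′ boundary of any of these 3 genes.

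The other collagens were likewise marked away from their starts. Col17a1, a transmembrane collagen of hemidesmosomes, had an intergenic interval 6.20 kb upstream (chr19:47698292-47698588), with a fold of 7.93 (5.30 to 11.5), a −log10 q of 6.23 and 23 fragments over 0.369. Col18a1, from which endostatin is cut, had 6.20 in intron 2 at 10.0 kb, and Col15a1, its close relative, had 4.22 in intron 14 at 9.38 kb. The interval of Col15a1 also overlapped the non-coding RNA gene Gm52734. P4ha1, the prolyl hydroxylase subunit that lets collagen chains form a stable helix, was the exception: its interval (chr10:59323196-59323616) contained the start, with a fold of 4 (2.86 to 5.47), a −log10 q of 2.85 and 35 fragments over 3.

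Metalloproteases with a disintegrin domain shed surface proteins or cut matrix, and they entered through that word. Adam9, a membrane sheddase, had an interval in intron 1, 6.00 kb from the start (chr8:25010598-25010815), with a fold of 7.75 (5.13 to 11.4), a −log10 q of 6.44 and 22 fragments over 0.346. It had another in a 3′ UTR (chr8:24990313-24990589), 7.20 kb from the nearest start, with 4.93 (3.31 to 7.12), 2.84 and 24 fragments over 1.29. Adamts17 had an interval over its start (chr7:66839584-66839818) with a fold of 4.36 (2.79 to 6.60), a −log10 q of 1.35 and 18 fragments over 1.00, and this interval also overlapped Gm33627, a long non-coding RNA gene. Adamts2, which trims procollagen, had 4.37 in intron 2 at 30.2 kb. The intervals given to the aggrecanases Adamts1 and Adamts5 and to Adamts6 lay 119, 446 and 214 kb from the start, with folds of 5.20, 4.88 and 4.73, so these names rest on distance alone.

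Genes given other roles made up the remaining 10 intervals, and some of the lowest folds were theirs. Fank1, a testis protein with a fibronectin type III domain, had a fold of 6.62 (4.90 to 8.77) and a −log10 q of 7.19 from 44 fragments over 2.00, in intron 1 at 3.91 kb (chr7:133793393-133794000). Actr8, an actin-related subunit of the INO80 remodeller, had 5.91 (4.30 to 7.95) and 5.56 from 39 fragments over 2.00, 0.026 kb from its start (chr14:29978444-29978730). Smarca2, the ATPase BRM of the SWI/SNF remodeller, had 3.57 (2.73 to 4.60) and 3.90 from 56 fragments over 6.00, 0.143 kb upstream of its start (chr19:26604678-26604907) and over the long non-coding RNA gene Gm52395. Its other interval (chr19:26140582-26140796), 464 kb upstream, had 4.51 and 1.93 from 14 fragments.

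Sp1, a factor that binds GC boxes, had the lowest fold of the members and the most fragments. Its interval (chr15:102405764-102406178) contained a start and had a fold of 1.82 (1.55 to 2.13) and a −log10 q of 1.84 from 155 fragments (132 to 181) over 36. It was 1 place from the bottom of the list by fold. Cactin (chr10:81320623-81321148), also over its start, had 2.52 (2.03 to 3.09) and 2.85 from 87 fragments over 14.2. Sp3 had 6.16 at 59.2 kb, Cntnap5b 5.84 at 2.90 kb, Dctn6 5.43 at 3.43 kb, and S100a10 2.72 at 36.7 kb, over Gm40093.

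By position, introns held more of the members than any other class. Within 1 kb of a transcript start lay 13 of the 60 intervals (21.7%, exact 95% interval 12.1 to 34.2) and 631 of all 1849 (34.1%, 32.0 to 36.3). Introns held 25 (41.7%, 29.1 to 55.1) against 493 (26.7%, 24.7 to 28.7), and intron 1 held 11 of those 25 (44.0%) against 194 of 493 (39.4%). The 95% intervals of the shares near a start overlap, and those in introns do not. All members are named for protein-coding genes, and introns held 27.5% (25.3 to 29.8) of the 1599 intervals named for such genes. That 95% interval does overlap the one of the members. Intervals of the same gene are counted apart in these shares, and the differences were not tested. Intergenic DNA far from genes held 11 (18.3%, 9.52 to 30.4) against 457 (24.7%, 22.8 to 26.7). The members' genes were long: their median length was 76.7 kb, where protein-coding genes named for any interval had 34.7 kb and all protein-coding genes 17.2 kb. The part of gene length in these shares was not tested.

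Inside the gene it was named for lay 43 of the 60 intervals, 34 of them nearer to its 5′ than to its 3′ boundary. Names go to the nearest transcript start, and no such counts over all intervals stand beside these, so they describe the members only. Of the 17 outside, 14 overlapped no RefSeq gene, though the authors' annotation places that of Xirp1 in a Cx3cr1 transcript. Members within 1 kb of a start had a median fold of 4.49 (95% interval from ranks 3.57 to 5.76) from a median of 35 fragments over 2.00, and those farther away had 5.18 (4.64 to 5.43) from 22 over 0.664. These 95% intervals, from 13 and 47 members, overlap. In the list, with 631 and 1218, they did not: all intervals within 1 kb had 4.32 (4.18 to 4.42) from 34 fragments over 2.40, and those farther away 4.98 (4.89 to 5.06) from 25 over 1.00. Whether the 95% intervals overlap depends on these numbers, and neither difference was tested. The IgG expectation, which enters the fold as a divisor, was higher near starts in both, and its part was not tested.

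**Figure D4:**
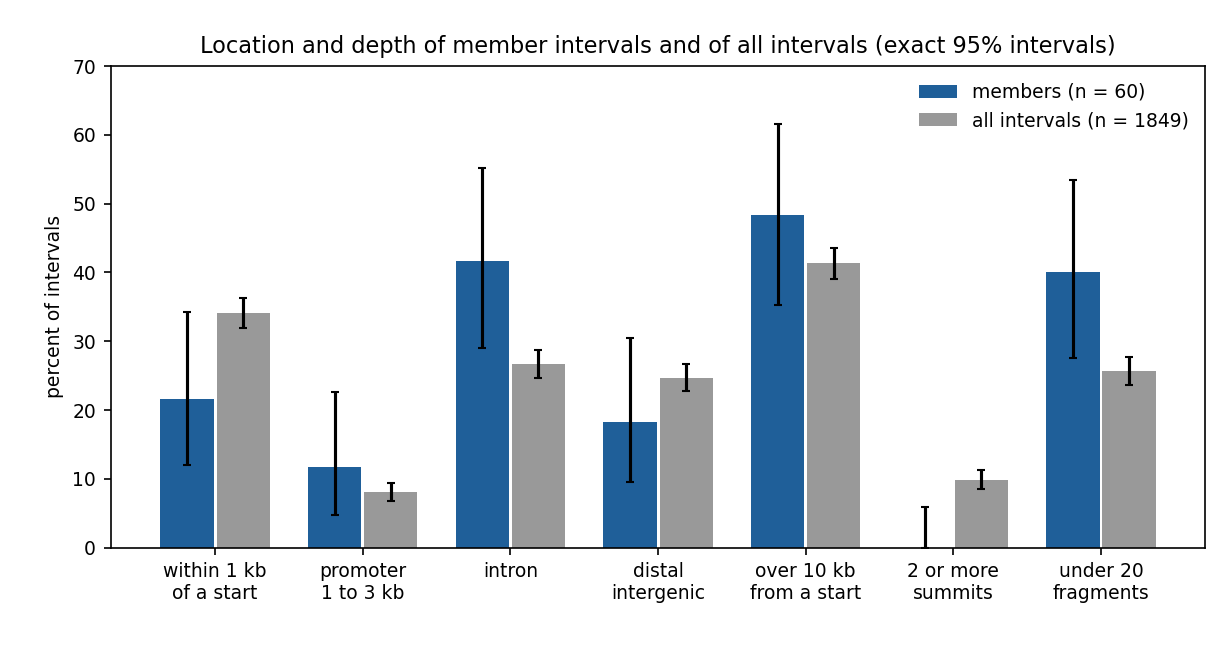
Percent of the 60 members (blue) and of all 1849 intervals (grey) in each location class, with more than 1 summit, and with fewer than 20 CHD4 fragments, with exact 95% binomial intervals. Members stand at 21.7% within 1 kb of a start and 41.7% in introns, and the list at 34.1% and 26.7%.

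Families defined by gene symbol show how much of each was reached, with Acta2 and Cdh5 counted here. In the background 1329 of 21887 protein-coding genes were named for an interval, or 6.07%. Over 12 families 26 of 255 genes were named (10.2%, exact 95% interval 6.77 to 14.6). The collagens had 5 of 44, the integrins 3 of 26, the myosin heavy chains 3 of 38, the myosin light chains and their kinases 2 of 17, and the catenins 2 of 9. Among the small families were 2 of 4 alpha-actinins (Actn1 and Actn4), 2 of 4 tropomyosins and 2 of 7 actins. Cadherins had 2 of 23. Of 69 protocadherins, which help neurons tell their own branches from others, none was named, which allows a share up to 5.21%. For an interval within 1 kb of a start, 2 of the 255 were named (Itgb1 and Myl12a, 0.784%, exact 95% interval 0.0951 to 2.80), beside 2.55% in the background, which lies inside that interval. These genes had a median length of 71.3 kb against 17.2 kb for all, and the part of gene length was not tested.

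Other genes of the same pathways, from lists that the name search does not define, were looked up in the same way. Over 5 lists, after members and Tns3 were removed, 27 of 145 genes were named (18.6%), 8 of them for an interval within 1 kb of a start (5.52%), beside 6.07% and 2.55% of all protein-coding genes. Their median length was 38.7 kb. The lists were drawn up with results of this peak list known, so these shares are a description.

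Of 30 focal adhesion genes 6 were named, Tns3 among them, and 4 of these within 1 kb of a start. Bcar1, the adaptor p130Cas, had 4 intervals with folds from 3.23 to 5.38, and Nedd9, its relative, had 3 with folds from 4.23 to 6.48, of which 1 lay 0.158 kb from the start. Tns1, tensin 1, had 3, from 2.70 to 5.43, and Sorbs3, vinexin, had 6.41 at 0.217 kb from its start. Git2, a GTPase regulator of adhesions, had 3.97 at 0.143 kb.

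Of 40 genes of actin assembly and turnover 8 were named, and Cttn was the 1 of them with an interval near a start. Wasf2, the WAVE2 subunit that calls the Arp2/3 complex into action, had the highest fold, 7.26, at 12.2 kb upstream from 29 fragments. Ssh1, the phosphatase that activates cofilin, had 3 intervals from 3.97 to 6.98, and Cfl2, the cofilin of muscle, had 4.02 at 26.5 kb. Limk2, the kinase that inactivates cofilin, had 4.93, Gsn, gelsolin, which severs filaments, 5.22, and Diaph1, a formin, 3.72.

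Of 34 genes of the matrix and its enzymes 6 were named: P4ha1 together with Fbn1 (fibrillin, fold 6.80 at 51.1 kb), Postn (periostin, 6.68 at 55.1 kb), Mmp2 (gelatinase A, 5.97 at 2.95 kb), Fbln2 (fibulin 2, 4.34 over its start) and Hspg2 (perlecan of the basement membrane, 4.33). Of 26 cell junction genes 5 were named. Among these Nectin2 had 2.78 at 0.043 kb from 69 fragments over 10.0, and F11r, Dsg2 and Cadm1 had their highest folds of 6.44, 6.31 and 6.37 farther away.

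SRF and YAP are factors whose targets respond to actin tension. Of 19 genes on their list 6 were named (31.6%), beside 6.07% of all protein-coding genes, and this list too was drawn up with results known. The median length over all 19 genes was 16.3 kb, and over all protein-coding genes 17.2 kb. The part of gene length in this share was not tested. Wwtr1, the YAP relative TAZ, had 8.56 at 73.7 kb and 6.44 at 24.7 kb, and Tead1, the DNA-binding partner of both, had 6.05 and 5.74. Mrtfb, the SRF cofactor that senses free actin, had an interval 0.147 kb from its start with a fold of 4.17 from 56 fragments over 5. Ccn2, a YAP target, had 5.36 over its start and 6.48 at 102 kb, while Ankrd1 and Fos had 4.53 and 4.80. Yap1 and Srf themselves were not named.

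**Figure D5:**
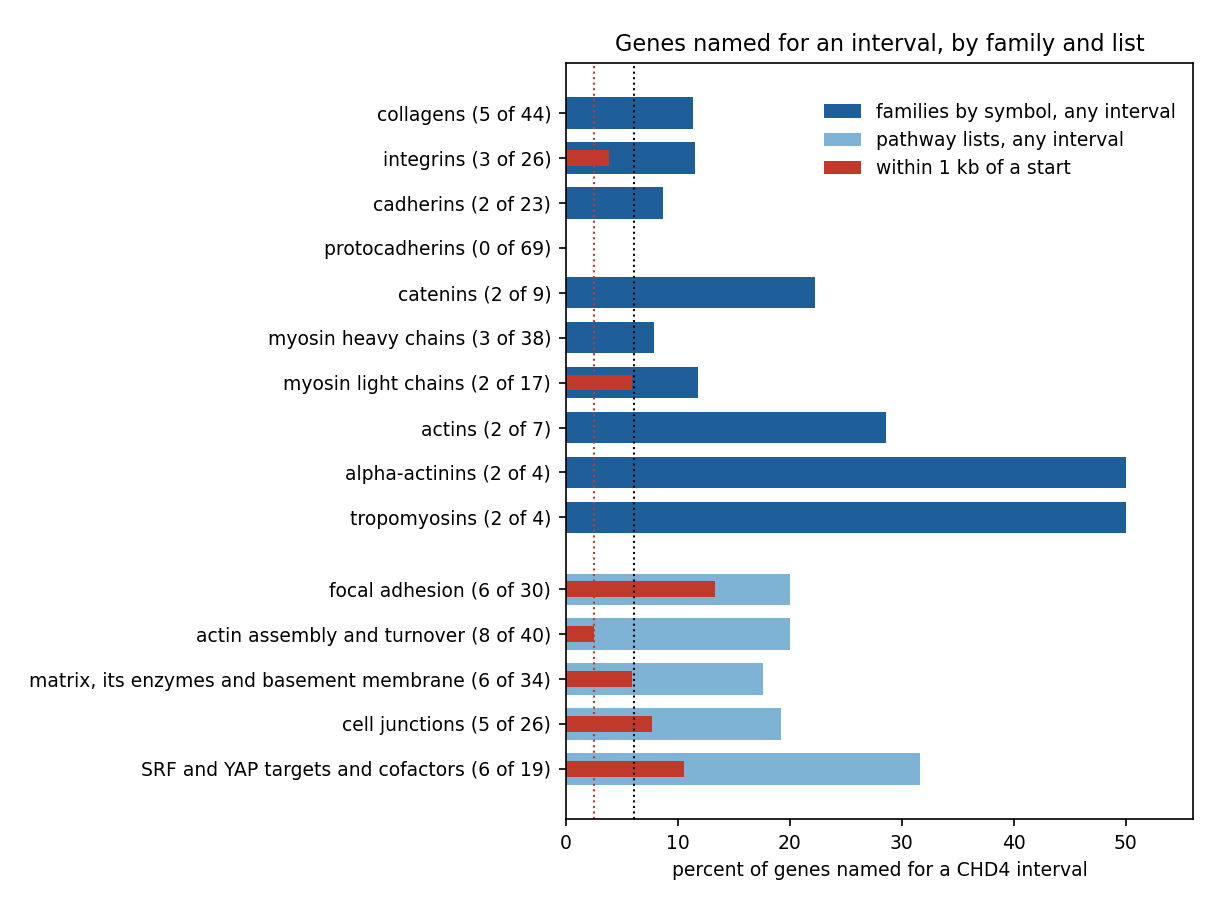
Percent of the genes in 10 families (dark blue) and pathway list (light blue) named for a CHD4 interval, with the percent named for an interval within 1 kb of a start in red, and dotted lines at the background of 6.07% (black) and 2.55% (red). Of the 10 families drawn only integrins and myosin light chains have a red bar, and each has 1 gene in it.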

How the data were processed

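CHD4 CUT&Tag was compared with an antibody control in 2 and 2 samples, grouped by the antibody in the labels. The submitters' processing notes list the build mm10 and the tools MACS2 2.1.2, Bowtie2 2.2.5 and Trim Galore 0.5.0. How replicates were combined, and how duplicates and reads with several matches were handled, is not given in the sources used. That deposited list has no value per sample and states no depth. Per the file headers it holds the authors' fold, a ratio of CHD4 to IgG signal at the summit, and its log2. The deposited −log10 p and −log10 q columns are known from the caller's order, and the largest q-value in the list was 0.0492. A deposited score, 10 times the −log10 q, was not used further. The opening peak had been read as a header and is not analysed here.

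Rows sharing an interval were collapsed, keeping the summit with the largest fold. The authors' annotation supplied gene names, distances and classes, and it assigns a peak to the nearest transcript start. Gene bodies and promoters came from RefSeq GRCm38.p6, and all 50 member genes were matched by number. Fragments were recovered on the model that the fold is the scaled CHD4 count plus 1 over the IgG expectation plus 1, with a Poisson p. A scale of 0.429 solved 100% of summits with 1 solution, within 0.0005 on −log10 p. The largest scale that solved 40 sampled summits was taken, and scales away from it solved at most 47.5% of them. A smaller scale that doubles every count was left out of that comparison, because it gives the same fit. The fragment numbers therefore rest on taking the largest scale. On this model CHD4 had 2.33 fragments for each IgG fragment, and whether these units are reads or fragments is not given. The method was tested on simulated data.

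Named with full values were the 10 members of highest fold, those within 1 kb of a start, genes with 2 or more intervals, and the members of lowest fold and most fragments. Some named members and list genes are counted in the totals but not reported here. Members and lists were chosen with earlier results of these data known, and roles were given after the gene names were seen. Python 3.11.15, pandas 2.3.3, numpy 2.4.6, scipy 1.17.1 and matplotlib 3.10.9 were used. Alternatives were a q under 0.01, summits or genes as the unit, at least 20 fragments, no summits at the lowest IgG expectation, a 3 kb window, and a 50 kb limit on distance.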

Additional observations from a re-analysis of the deposited data

How the results depend on the processing

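No paired analysis was possible because the list gives no value per sample, and for the same reason no replicate could be left out. Under every alternative run, the values of the members moved by less than their 95% intervals: their median fold, 4.95, lay between 4.73 and 5.39. Some values of the whole list moved outside their 95% intervals, which are narrower because the list is larger. Its median fold, 4.76, became 5.11 with q under 0.01, 4.63 with summits as the unit, 4.84 with genes as the unit, 4.62 with at least 20 fragments, and 4.67 without the lowest IgG expectation. In size the members' median shifted more than that of the list under each of these but summits as the unit, where it did not shift. The share of all intervals near a start, 34.1%, became 42.2% in a 3 kb window, where that of members went from 21.7% to 33.3%. The share of family genes named, 10.2%, became 0.784% when an interval within 1 kb of a start was asked for, beside 2.55% of all protein-coding genes, and was 9.80% within 50 kb and 7.84% with q under 0.01. The share of all protein-coding genes named, 6.07%, became 5.43% within 50 kb and 4.77% with q under 0.01. At 12 to 20 fragments the counting bounds of a fold span more than 2 times, which limits any ranking among members.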

Other observations

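Chromosome 8 carried 10 of the 60 intervals (16.7%) and 101 of all 1849 (5.46%): those of Adam9, Col4a1, Col4a2, Dctn6, Fat1, Itgb1, Mylk3 and Tpm4. The X chromosome carried none of the members and 19 of all intervals. Neither count was tested.

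In 5 places a member interval overlapped a long non-coding RNA gene, and none overlapped a gene for a small RNA. A further interval lay inside Itgad, an integrin alpha chain of leukocytes, but was given to 4931431B13Rik, whose start is 0.018 kb away (chr7:128203346-128203547, fold 4.14 from 17 fragments).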
